A study of Mus musculus with 7 samples.

Results

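Urea synthesis and glucose production are carried out by enzymes that hepatocytes make in large amounts, and 10 genes encoding such enzymes were examined for binding of CTCF and of the cohesin subunit Rad21 in mouse liver. The genes were Cps1, Ass1, Asl, Arg1 and Nags of the urea cycle, Pck1, G6pc, Fbp1 and Pcx of gluconeogenesis, and Tat of tyrosine catabolism. They were chosen by name among 22367 protein-coding genes, and every CTCF or Rad21 peak with at least 1 bp within 50 kb of the annotated gene span was taken. All coordinates are those of mouse build mm9 and are counted from 1.

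The peaks came from ChIP-seq of livers of male CD-1 mice (strain Crl:CD1(ICR)) killed at 8 weeks of age. There were 4 libraries made with an antibody to CTCF and 3 with an antibody to Rad21, with no other genotype or treatment. The authors merged the libraries of each factor before peak calling, which gave 76683 CTCF peaks and 67369 Rad21 peaks, so no value here has a spread between livers and no comparison has a test over livers. The study's methods state a range of read depth for the libraries, but the peak lists hold no read totals, so the depth of each library was not taken into account here. Whole liver contains other cells beside hepatocytes, and ChIP gives no RNA level with which to check the tissue label.

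CTCF binds a long, directional DNA motif, and cohesin is a ring that extrudes chromatin loops and halts at CTCF. Pairs of CTCF sites whose motifs point toward each other can hold the base of a loop, and such sites at the edges of topologically associating domains (TADs) or within them are called anchors. Cohesin is also found away from CTCF, at sites called cohesin-non-CTCF (CNC) sites, which in liver are often enhancers or promoters bound by liver transcription factors such as C/EBP, HNF4, HNF1 and FOXA. Urea cycle and gluconeogenic genes are classic targets of these factors and, during fasting, of glucagon through CREB and of glucocorticoids.

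The DNA under the peaks is shown first, because the 2 kinds of site differ in it. A 19-base CTCF motif was learnt from the summits of 1500 strong TAD anchors, with the consensus NNNCCANNAGNNGGCNNNN (N where no base passed 0.6). On the other chromosomes, which were not used for learning, 84.2% of 2822 TAD anchors held a match within 50 bp of the summit, and in 99.5% of those the strand was the one deposited. The strongest CTCF peak of 8 of the 10 windows held a match within 100 bp of its summit, printed here in capitals on the strand of the motif with 5 flanking bases on each side.
Cps1, chr1:67227941-67227959, + strand, intron of Cps1: ctgtgAAACCACACGGGGGCGCTAgaaac
Asl, chr5:130520207-130520225, + strand, intron of Crcp: cacaaTGGCCAGGAGAGGGACCCAgcaag
Arg1, chr10:24589633-24589651, + strand, intergenic: ggctcCAGCCAGGAGAGGGTGGCCttgcc
Nags, chr11:101964005-101964023, + strand, intergenic: catggCTGCCACCAGGGGGCGCCTggctc
Pck1, chr2:172933072-172933090, + strand, intron of Ctcfl: aagatTAGCCACCAGAGGGTGCTAcagga
G6pc, chr11:101185090-101185108, + strand, intergenic: ctgagCTGCCAGCAGAGGCTGCTGtggtt
Pcx, chr19:4497673-4497691, + strand, intron of 2010003K11Rik: actcaCAGCCACCAGGTGGGGGTAgagcc
Tat, chr8:112486163-112486181, + strand, intergenic: gccacTGGCCGCCAGGGGGCAGTCgtggt

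The level for a match was 12.1 bits, which 1% of flanking windows reaching 50 bp on each side passed. The strongest CTCF peaks were searched over 100 bp on each side, where a larger share of flanking windows could pass. The best matches in the strongest CTCF peaks of Ass1 and Fbp1 scored 4.94 and 2.09 bits, under that level, and are not printed. Both peaks were nevertheless deposited with a motif, on the plus strand at Ass1, where the best match found here was on the minus strand, and on the minus strand at Fbp1.

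At the CNC sites of the 10 windows, 0 of 51 held the CTCF motif at that level within 50 bp of the summit, against 1.48% of all 15321 CNC sites and 38.8% of all Rad21 peaks with CTCF. The short motifs of 6 liver or hormone-responsive factors were then searched on both strands within 100 bp of each CNC summit. The sequence around the strongest CNC summit is printed below for the 5 members in which it held such a motif and no UTR, read along the plus strand over 75 bp on each side of the summit, with the motif in capitals.
Nags, chr11:102027659-102027809, intron of Lsm12, FOXA motif: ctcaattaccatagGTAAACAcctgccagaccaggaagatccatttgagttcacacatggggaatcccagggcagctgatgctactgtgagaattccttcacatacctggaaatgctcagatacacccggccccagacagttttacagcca
Pck1, chr2:172990485-172990635, intergenic, C/EBP motif: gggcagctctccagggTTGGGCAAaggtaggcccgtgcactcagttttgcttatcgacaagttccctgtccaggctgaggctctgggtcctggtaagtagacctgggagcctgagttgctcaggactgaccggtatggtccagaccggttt
G6pc, chr11:101223612-101223762, intergenic, glucocorticoid receptor motif: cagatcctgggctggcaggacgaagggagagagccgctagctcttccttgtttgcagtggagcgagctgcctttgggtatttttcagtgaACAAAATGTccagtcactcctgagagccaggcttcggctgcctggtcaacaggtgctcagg
Pcx, chr19:4536674-4536824, intron of Pcx, C/EBP motif: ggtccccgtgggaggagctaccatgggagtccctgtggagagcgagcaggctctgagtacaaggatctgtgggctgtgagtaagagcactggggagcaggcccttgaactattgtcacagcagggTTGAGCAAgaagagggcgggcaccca
Tat, chr8:112510387-112510537, intergenic, C/EBP motif: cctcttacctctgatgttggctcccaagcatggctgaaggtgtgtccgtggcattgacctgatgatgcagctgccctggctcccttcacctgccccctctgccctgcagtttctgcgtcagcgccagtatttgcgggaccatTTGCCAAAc

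The C/EBP motif (TTNNGCAA) was the most frequent of the 6, as it also was in windows of the same length 2 kb away from all CNC summits (7.8%). It lay within 100 bp of 11 of the 51 CNC summits (21.6%, 95% Wilson interval 12.5 to 34.6%), in the windows of 8 members, against 11.7% of all CNC sites. Within 50 bp of the summit it was present at 3 of the 51, against 5.57% of all, so that the excess rested on the outer part of the window. Among the 11 were the CNC sites 838 bp upstream of Arg1, 3875 bp upstream of Tat and 6163 bp upstream of Cps1. The FOXA motif (TGTTTAC) was found at 2 CNC sites (3.92%) against 4.32% of all, and one of these was the same Cps1 site. The glucocorticoid receptor motif (ACANNNTGT) was found at 1 site (1.96%), the G6pc site printed above, against 6.29% of all. No site held the HNF4 (CAAAGTCCA), HNF1 (TTAATNATT) or CREB (TGACGTCA) motif, which 1.25%, 1.19% and 0.209% of all CNC sites held, rates at which 51 sites could hold no match. Any of the 6 motifs was present at 13 sites (25.5%, interval 15.5 to 38.9%) against 22.5% of all within 100 bp and 17.8% at 2 kb away, and at 4 against 11.4% within 50 bp. A match of letters is not evidence of binding, and the lack of one says only that these letters were not in that window.

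The windows held 143 CTCF peaks and 145 Rad21 peaks. Of the Rad21 peaks, 94 overlapped a CTCF peak and 51 did not. The share without CTCF was 35.2% (95% Wilson interval 27.9 to 43.2%), whereas it was 22.7% over all Rad21 peaks and 22.0% over the 60035 Rad21 peaks within 50 kb of any protein-coding gene. The interval covers counting error only, and peaks of the same window are not independent. Every window held at least 1 CNC site, from 1 at Pck1 to 11 at Pcx, while 50.3% of all protein-coding genes had a CNC site in the window. No Rad21 peak lay over 46 of the CTCF peaks, or 32.2%, near the 32.7% over the whole CTCF list.

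**Figure D1:**
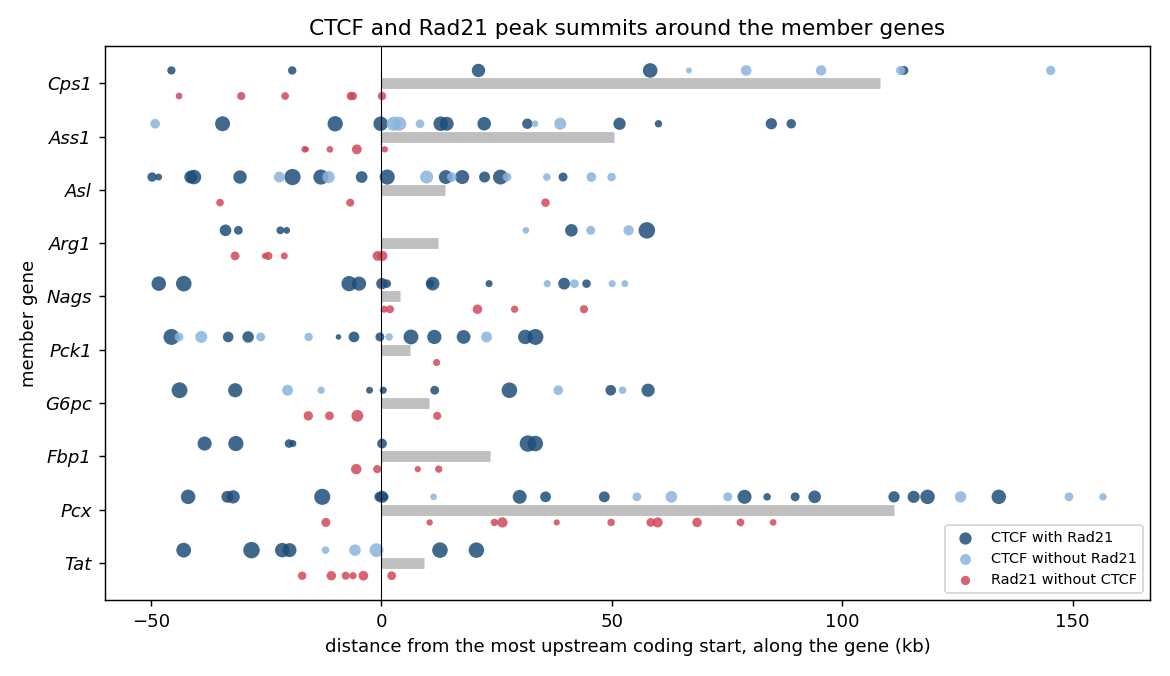
CTCF and Rad21 peak summits in the 10 windows by distance from the most upstream coding start along the gene (kb), with the gene span in grey, CTCF peaks above the bar and CNC sites below it. Point size grows with peak score. CNC sites lie mostly upstream of the start at Cps1, Ass1, Arg1, G6pc and Tat and mostly inside the gene at Pcx, and number 1 at Pck1.

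The share differed among genes. CNC sites made up 54.5% of the Rad21 peaks at Cps1 (6 of 11) and 6 of 12 at both Arg1 and Tat. At the other end they made up 17.6% at Asl (3 of 17) and 8.33% at Pck1 (1 of 12). The share was above that of all Rad21 peaks at 8 of the 10 genes, but how many of all genes lie above it was not counted. By role it was 35.2% for the urea cycle genes (25 of 71, interval 25.1 to 46.8%), 32.3% for the gluconeogenic genes (20 of 62, interval 22.0 to 44.6%) and 6 of 12 for Tat (interval 25.4 to 74.6%), and these intervals overlapped.

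Windows were of unequal length, since Cps1 spans 108 kb and Pcx 111 kb while Nags spans 3.96 kb, so densities were also computed. The members held a median of 3.47 CNC sites per 100 kb of window, against a median of 0.218 and an upper quartile of 1.62 over all protein-coding genes. Tat (5.49 per 100 kb), Arg1 (5.34) and Pcx (5.21) were the densest, and 9 of the 10 were above that quartile. Pck1, at 0.941 per 100 kb, was the exception. CTCF peaks were also denser than usual, with a median of 11.1 per 100 kb against 5.58, and a high of 19.3 at Asl. The median distance from a start to the nearest CNC summit was 1.03 kb for the members and 62.2 kb over all genes with a value. The reference genes include those that are silent in liver, and no RNA was measured here, so a comparison with genes of like activity was not made.

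**Figure D2:**
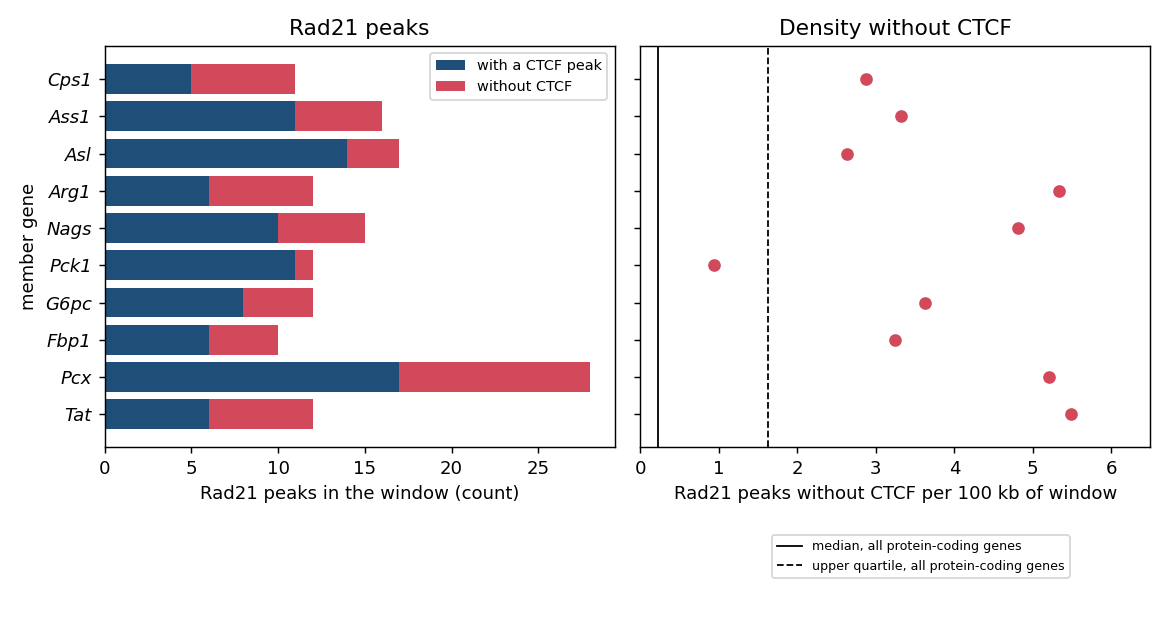
Left, number of Rad21 peaks in each window with a CTCF peak (blue) and without (red). Right, CNC sites per 100 kb of window for each member, with the median (solid line, 0.218) and upper quartile (dashed line, 1.62) of all protein-coding genes; 9 of the 10 members sit right of the dashed line.

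CNC sites were weaker than Rad21 peaks with CTCF, as over the whole list. Peak score is 10 times the −log10 q-value of the summit, and the median score was 72 for the 51 CNC sites and 182 for the 94 co-bound sites of the windows, against 65 and 245 over all sites of each kind. On the scale of fold over local background the order against the whole list turned, with a median of 2.99-fold for the members' CNC sites and 3.35-fold for all. The local background at the summit, recovered from the deposited fold and p-value, had a median of 13.1 fragments at the members' CNC sites and 7.42 at all CNC sites, and the median number of fragments at the summit was 42 against 29. The part of background in the counts was not tested. Background was highest at Ass1, where the CNC sites had a median of 21.8 fragments and a median fold of 2.08.

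**Figure D3:**
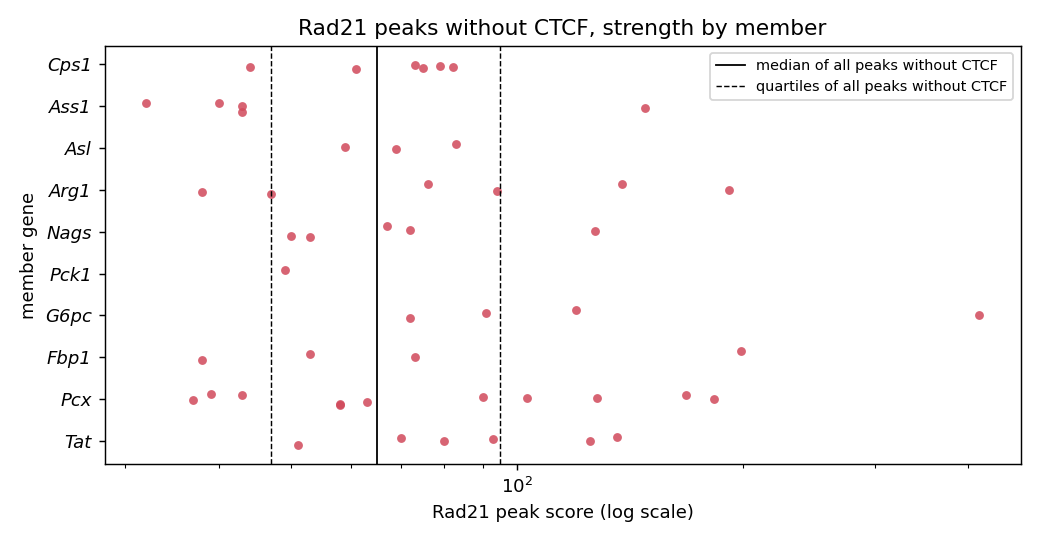
Score of each CNC site by member (log axis, points spread vertically for legibility), with the median (65, solid) and quartiles (47 and 95, dashed) of all 15321 CNC sites. The G6pc site at 413 lies farthest right, and 4 of the 5 Ass1 sites lie left of the lower quartile.

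Seen at the starts, the genes fell into several patterns. A CTCF peak lay within 1 kb of an annotated coding start at 8 of the 10 genes (55.1% of all protein-coding genes), and a Rad21 peak with CTCF at 7 (49.7% of all). A CNC site lay within 1 kb of a start at 5 genes, Cps1, Ass1, Arg1, Nags and Fbp1, where 8.94% of all genes had one. Within 500 bp the number was 3 of the 10, against 6.87% of all genes. Among Rad21 peaks with a score of at least 100 it was 1, Arg1, against 2.9% of all genes. It was 2, Arg1 and Nags, against 5.91% of all genes, where CTCF peaks under that score were removed too, because a co-bound Rad21 peak of Nags then counted as a CNC site. Counted over sites rather than genes, 8 of the 51 CNC summits lay within 1 kb of a start of any gene (15.7%, interval 8.17 to 28.0%), against 12.6% of all CNC sites, a value inside that interval. Cps1 and Arg1 had CNC sites and no CTCF peak in that zone, a state found at 2.07% of all genes. In all, 9 of the 10 genes had a Rad21 peak of either kind within 1 kb, and the exception was Tat. No share of all genes with a peak of either kind was computed to set beside this.

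**Figure D4:**
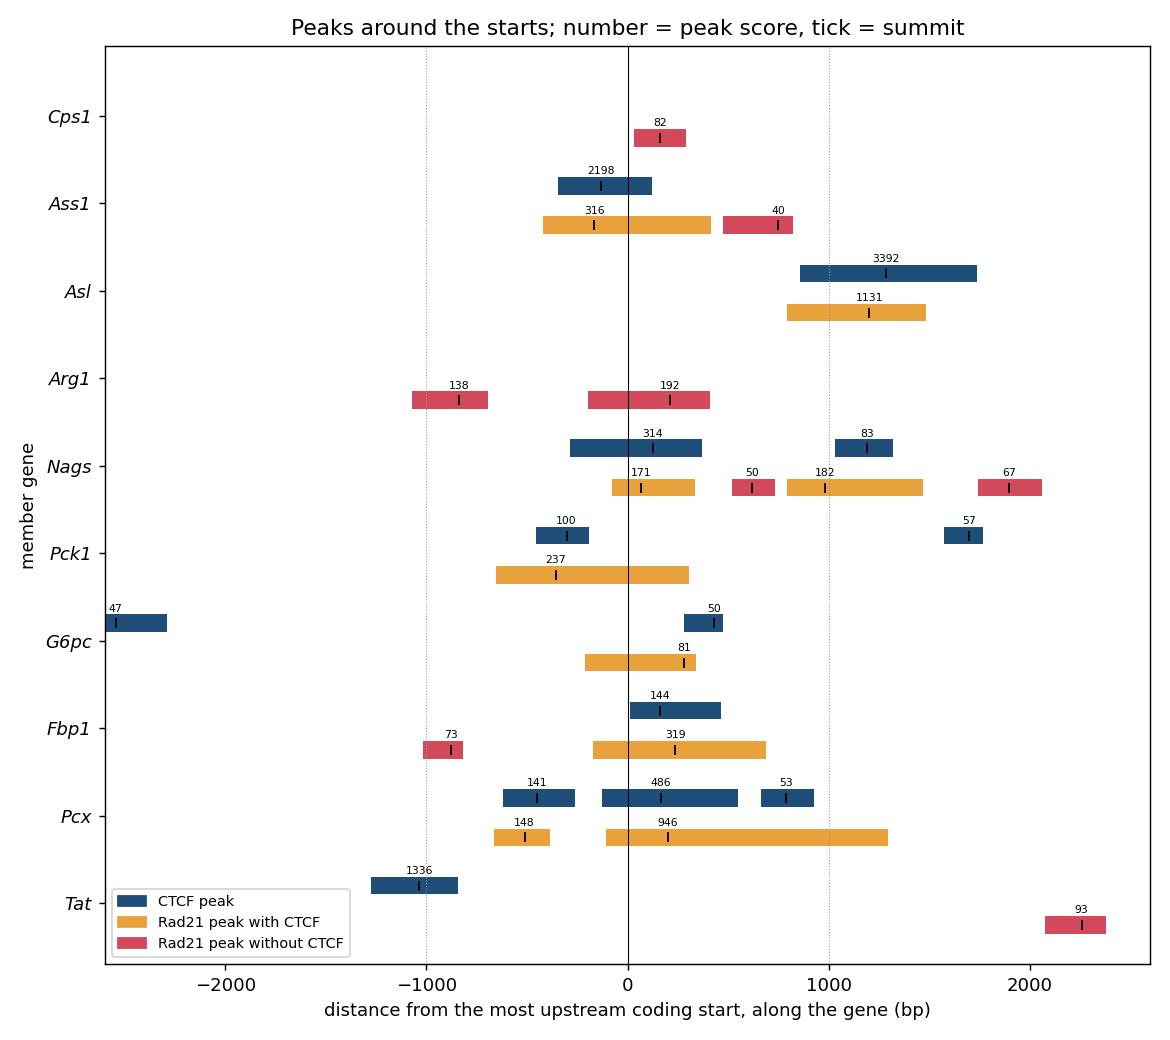
Peaks within 2.6 kb of the most upstream coding start of each member, drawn to scale along the gene; numbers are peak scores, ticks are summits and dotted lines mark 1 kb. Cps1 and Arg1 show Rad21 without CTCF, Pck1, G6pc and Fbp1 show Rad21 peaks that score above the CTCF peak beside them, and Tat shows CTCF without Rad21 near the start and a CNC site of score 93 at 2258 bp downstream.

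Cps1 (chr1:67169600-67277833, + strand) encodes carbamoyl phosphate synthetase, the mitochondrial enzyme that brings ammonia into the urea cycle. Its start carried a CNC site at chr1:67169632-67169891, with the summit 161 bp downstream in the first coding exon, a score of 82 and 31 fragments at 3.75-fold over background. That was also the strongest of its 6 CNC sites, whose scores ran from 44 to 82. The other 5 lay upstream, at 6163 bp, 6606 bp, 20.9 kb, 30.4 kb and 43.9 kb, and none lay in the 108 kb gene beyond the first exon. The nearest CTCF summit to the start was 19.3 kb away. A TAD anchor of score 2338 with 264 fragments, the strongest CTCF peak of the window, lay in an intron 58.3 kb into the gene, so that the start and the end of the gene were on opposite sides of it.

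Ass1 (chr2:31325727-31376192, + strand) encodes argininosuccinate synthetase. It had 17 CTCF peaks and 16 Rad21 peaks. Unlike Cps1, its start carried a strong CTCF peak, with the summit 131 bp upstream, a score of 2198 and 388 fragments at 8.81-fold, together with a Rad21 peak of score 316. A weak CNC site of score 40 lay 749 bp downstream, and its fold was 2.04. The strongest of the 5 CNC sites (score 148, 72 fragments) was 5304 bp upstream at chr2:31319710-31320597, and 3 others lay in the neighbouring gene Hmcn2. The strongest CTCF peak (score 3785) was 10 kb upstream in a coding exon of Hmcn2. There were 3 intra-TAD anchors in the introns of Ass1, at 3909 bp, 12.9 kb and 14.2 kb, and all were on the plus strand.

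Asl (chr5:130487128-130501002, − strand) encodes argininosuccinate lyase. It had the most CTCF peaks per 100 kb, 22 in all, and 17 Rad21 peaks. An intra-TAD anchor lay in the gene 1286 bp downstream of the most upstream of its 7 annotated coding starts and 279 bp from the nearest of them, with a CTCF score of 3392 and a Rad21 score of 1131. A CTCF peak of score 817 without Rad21 lay 571 bp upstream of an internal start. Asl had 3 CNC sites, with scores of 59, 69 and 83, and each fell in a neighbour, the strongest in a UTR exon of Gusb and the others in Crcp. Its strongest CTCF peak (score 7625, 812 fragments) was 19.3 kb upstream in an intron of Crcp, and the window held 6 intra-TAD anchors.

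Arg1 (chr10:24635014-24647276, − strand) encodes liver arginase, which releases urea. Its start had the strongest CNC site at the start of any member, at chr10:24646867-24647474, with the summit 212 bp downstream in an intron, a score of 192, 56 fragments and 4.72-fold. That score was at the 95.3rd percentile of all CNC sites. A second CNC site of score 138 with 47 fragments lay 838 bp upstream. The other 4 formed a group between 21.0 kb and 31.7 kb upstream, with scores of 38 to 94. The nearest CTCF summit to the start was 20.5 kb away, and no CTCF peak lay in the gene. The strongest CTCF peak (score 9240, 870 fragments), the highest score of any member window, was 57.6 kb downstream and 127 bp upstream of the Med23 start.

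Nags (chr11:102006827-102010791, + strand) encodes N-acetylglutamate synthase, which makes the activator of Cps1. Its start held CTCF with a score of 314 and Rad21 with a score of 171. A second co-bound Rad21 peak, 981 bp downstream, scored 182 where its CTCF peak scored 83. CNC sites of score 50 and 67 lay 619 bp and 1898 bp downstream, so that Rad21 peaks with and without CTCF alternated along the gene. The strongest of the 5 CNC sites (score 127) was 20.9 kb downstream in an intron of Lsm12. Another, of score 72, lay 92 bp upstream of the start of G6pc3, which encodes a glucose-6-phosphatase made in many tissues. The strongest CTCF peak (score 4697) was 42.8 kb upstream. All 5 anchors of this window were intra-TAD anchors, and the pair on either side of the gene were both on the minus strand, 4.58 kb and 6.93 kb from it.

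Pck1 (chr2:172978549-172984774, + strand) encodes the cytosolic phosphoenolpyruvate carboxykinase of gluconeogenesis, a gene induced in fasting. It differed from the rest in having 11 of its 12 Rad21 peaks over CTCF. At the start, however, CTCF was weak, with a score of 100 and 43 fragments at 303 bp upstream, and the Rad21 peak over it was stronger, with a score of 237 and 72 fragments at 357 bp upstream. At 9.26 kb upstream, a Rad21 peak of score 173 overlapped a CTCF peak of score 31, the lowest CTCF score of all the windows. The single CNC site (score 49, 39 fragments, 2.47-fold) was 12.0 kb downstream, beyond the end of the gene. The strongest CTCF peak (score 6179) lay 45.5 kb upstream in an intron of Ctcfl, the germline paralogue of CTCF. A pair of TAD anchors with diverging motifs, of scores 2157 on the minus strand and 6013 on the plus strand, lay 31.3 kb and 33.4 kb downstream.

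G6pc (chr11:101228875-101239217, + strand) encodes the catalytic subunit of liver glucose-6-phosphatase, which releases free glucose. It had the strongest CNC site of the 10 windows, at chr11:101223446-101223871. The summit lay 5188 bp upstream of the start in intergenic DNA, with a score of 413 and 98 fragments at 5.90-fold, the 99.8th percentile of all CNC sites. CNC sites of score 91 and 120 lay farther upstream at 11.2 kb and 15.8 kb, and one of score 72 lay 12.1 kb downstream. The start itself had a CTCF peak of score 50 with 32 fragments, and a Rad21 peak of score 81 with 50 fragments. The nearest anchors were an intra-TAD pair in convergent orientation, of scores 5528 (its strongest CTCF peak, 43.8 kb upstream of the start) and 4610 (27.8 kb downstream), and the 4 CNC sites lay between them.

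Fbp1 (chr13:62966113-62989642, − strand) encodes liver fructose-1,6-bisphosphatase. Its start had CTCF of score 144 with 48 fragments and, over it, Rad21 of score 319 with 84 fragments. A CNC site of score 73 lay 879 bp upstream, and the strongest (score 199, 48 fragments, 5.61-fold) lay 5434 bp upstream at chr13:62994885-62995343. The other CNC sites, of scores 38 and 53, were in introns of the gene. All 7 CTCF peaks of the window overlapped Rad21. The strongest, a TAD anchor of score 8645 with 1051 fragments, the most of any peak here, was 31.8 kb downstream of the start in an intron of Fbp2, the related gene of muscle.

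Pcx (chr19:4510472-4621752, + strand) encodes pyruvate carboxylase, the mitochondrial enzyme that starts gluconeogenesis from pyruvate. It had the most peaks, 25 of CTCF and 28 of Rad21. Its upstream start carried CTCF of score 486 and a Rad21 peak of score 946 with 179 fragments. Around them, CTCF peaks of score 141 and 53 lay 450 bp upstream and 790 bp downstream, and a Rad21 peak of score 148 lay 512 bp upstream over the first of these. The internal start had only weak peaks, of score 57 for CTCF and 45 for Rad21. Of the 11 CNC sites, 10 were in introns of Pcx, from 10.5 kb to 85.0 kb downstream of the start, with scores of 37 to 183. The strongest (183, 49 fragments, 5.07-fold) was 26.3 kb downstream. The remaining one fell 137 bp inside 2010003K11Rik, and the strongest CTCF peak (6926) was also in that neighbour, 12.8 kb upstream.

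Tat (chr8:112514337-112523703, + strand) encodes tyrosine aminotransferase, a long-studied glucocorticoid-inducible liver enzyme with hormone-responsive enhancers upstream of the gene. There were 6 CNC sites, of which 5 were upstream, at 3875 bp, 6140 bp, 7705 bp, 10.8 kb and 17.2 kb, and 1 was in an intron 2258 bp downstream. Their scores were 136, 51, 70, 125, 80 and 93 in that order. The start had no Rad21 peak within 1 kb. It had a CTCF peak of score 1336 with 195 fragments and no Rad21 over it, whose summit was 1036 bp upstream and whose edge reached the zone. All 6 CNC sites lay between a plus-strand intra-TAD anchor 19.7 kb from one end of the gene and a minus-strand one 3.13 kb from the other. The strongest CTCF peak (score 9175, 858 fragments) was 28.2 kb upstream and 73 bp from the start of Marveld3.

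At sites with both factors, the Rad21 score was above the CTCF score in 24 of 94 (25.5%, interval 17.8 to 35.2%), against 17.9% of all co-bound Rad21 peaks. By fold in place of score it was 21 of 94 (22.3%) against 19.9%, and within 100 kb of the genes 31 of 148 (20.9%), both nearer to the share of all sites. Of the 10 that touched a member's start zone, 6 were of this kind (60.0%, interval 31.3 to 83.2%), against 19.7% of 13435 such peaks at all starts. These were at Pck1, G6pc and Fbp1, both upstream peaks of Pcx, and the second peak of Nags. By fold the order turned at the Pcx peak 512 bp upstream (3.2 for Rad21 and 3.73 for CTCF). It held at the rest, though narrowly at G6pc (2.78 and 2.72). The 10 peaks were not independent, since some shared a gene, at Pcx and Nags. The start peaks at Ass1 and Asl were the opposite, with Rad21 at 0.144 and 0.333 times the CTCF score. So were the first peak of Nags (0.545) and the peak at the internal start of Pcx (0.789). The CTCF and Rad21 lists differ in antibody and library number, so a ratio is not an amount of one protein against the other. Scores also depend on the local background, which differed between sites, so ratios of scores are not strictly comparable between sites either.

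**Figure D5:**
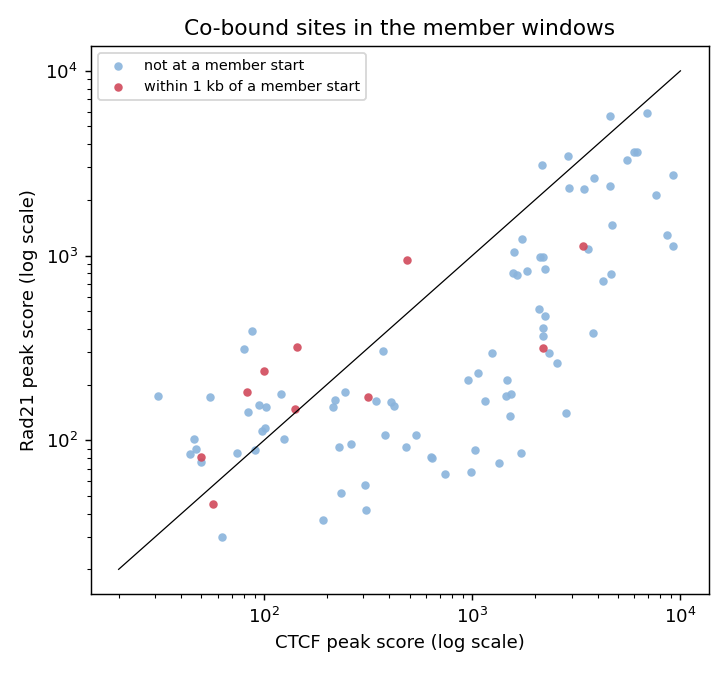
Rad21 score against CTCF score (both log axes) at the 94 co-bound sites of the windows, with sites within 1 kb of a member's start in red and the line of equal scores in black. Of the 10 red points, 6 lie above the line.

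The authors gave a class only to CTCF peaks that recurred in individual livers. The deposited classes covered 93 of the 143 CTCF peaks, as 8 TAD anchors, 24 intra-TAD anchors, 42 other CTCF-and-cohesin (CAC) sites and 19 lone CTCF sites. The classes did not follow the overlap used here at 4 of these sites, since 2 lone CTCF sites overlapped a Rad21 peak and 2 intra-TAD anchors, at Ass1 and Asl, did not. The remaining 50 (35.0%, against 31.6% over the CTCF list) were in no class. Intra-TAD anchors made up 25.8% of the classed sites (interval 18.0 to 35.5%), against 17.3% of all classed sites, and TAD anchors 8.60% against 11.2%. The authors kept only intra-TAD loops that contain a gene start, which ties intra-TAD anchors to genes. Class shares over the windows of all genes were not computed, so an excess at the members was not tested. All 10 windows held an anchor (65.1% of all genes). The nearest anchors outside the gene span on its 2 sides pointed toward each other at 4 members, Cps1, Asl, G6pc and Tat (32.4% of 21988 genes with an anchor on each side). The pair was 28.0 kb wide at Asl, 32.2 kb at Tat, 71.1 kb at G6pc and 2120 kb at Cps1, and at Cps1 and Asl it spans an anchor inside the gene. The Asl pair rests on a weak plus-strand anchor, with a CTCF score of 132 at 2.83-fold and no Rad21 peak over it. With intra-TAD anchors alone, or with anchors within 500 kb, Asl, G6pc and Tat remained, or 3 members, against 18.0% and 34.6% of genes with an anchor on each side. At Fbp1 the pair pointed away from each other, and at the other 5 both pointed the same way. The authors used strand and distance in choosing anchors, so these orders describe the list. A flag for the topoisomerase Top2b was set at 53.8% of the members' classed sites and 54.8% of all, and flags for the cohesin subunits Stag1 and Stag2 at 66.7% and 88.2%, against 70.6% and 88.1% of all.

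A wider list of 50 genes of the same pathways, of which 48 were matched in the annotation, gave a CNC site in the window for 38 and at the start for 15, beside the 50.3% and 8.94% of all genes given above. A CNC site at the start scored at least 100 at 8 of the 48, against 2.9% of all genes. By group the genes with a CNC site at the start were 3 of 5 for the urea cycle and its transporters (Car5a, Otc and Slc25a15), 5 of 15 for nitrogen and amino acid catabolism (Aass, Gpt, Hal, Hpd and Tdo2), 3 of 14 for gluconeogenesis (Eno1, G6pc3 and Tpi1), 0 of 3 for glycolysis in liver and 4 of 11 for regulators of gluconeogenesis (Foxo1, Hnf4a, Nr3c1 and Ppargc1a). Otc, which encodes the urea cycle enzyme ornithine transcarbamylase, had no CTCF peak at its start and a CNC site of score 94 with 27 fragments, as Cps1 and Arg1 did. Hal, Tdo2 and Tpi1 likewise had CNC sites and no CTCF at the start, which made 4 of the 48, where 2.07% of all genes were in this state. Hnf4a, encoding a liver transcription factor that acts on many of these genes, had a CNC site of score 236 and 4.22-fold at a start. The windows of G6pc3 and Fbp2 overlap those of Nags and Fbp1 and share peaks with them.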

How the data were processed

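ChIP-seq for CTCF (4 libraries) and Rad21 (3 libraries) was made from male mouse liver. Per the labels and the study's methods, the authors aligned reads to mm9 with Bowtie2, merged the libraries of each factor and called peaks with MACS2. Reads that mapped once were kept, and blacklisted regions and peaks of duplicate reads alone were removed. The deposited lists hold, for each peak, a score (10 times −log10 of the q-value, as a whole number), a fold ratio of signal over local background, −log10 p-values and −log10 q-values as the authors' caller wrote them, and the summit. Another deposited list gives, for part of the CTCF peaks, a class, a motif score and strand where a motif was found, and flags for Stag1, Stag2 and Top2b, whose order was taken from the study's own listing. No column of single libraries is held in the lists.

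Gene spans and starts of protein-coding transcripts were taken from GENCODE vM1 on NCBIM37, the assembly of mm9. All peaks lay on its 22 chromosomes and none passed a chromosome end. Peaks within 50 kb of a gene span by at least 1 bp were counted. A Rad21 peak was co-bound if it shared 1 bp with a CTCF peak. Fragments and background at each summit were solved from fold and p-value under the Poisson model of the caller, and were whole to within 0.01. Percent intervals are 95% Wilson intervals and cover counting error only. With pooled lists, no test between samples was possible, and shares are set beside those over all genes or all peaks. The CTCF motif (19 bases) was learnt by expectation maximization from 1500 TAD anchors on odd-numbered chromosomes, which hold several members. Overlap, recovery and motif steps were tested on simulated data. Work was done in Python with pandas, scipy and pysam.

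Members, lists and motifs were chosen with earlier results of these data known. All 10 members are named, with every peak at their starts, the strongest CTCF peak and strongest CNC site, and pathway genes are named where a CNC site lay within 1 kb of a start. The C/EBP-bearing sites at Arg1 and Cps1 and the Top2b flag were named after their values were seen. Window width, start zone, overlap rule, score minimum and motif window were varied. Some genes of the wider pathway list are not reported here.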

Additional observations from a re-analysis of the deposited data

How the results depend on the processing

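Counts followed the window. With the gene span alone there were 37 CTCF and 41 Rad21 peaks and 18 CNC sites, or 43.9% of the Rad21 peaks. With 10 kb there were 65, 76 and 31, and 12 anchors, 25 other CAC sites, 8 lone CTCF sites and 12 of 45 co-bound sites with Rad21 above CTCF (26.7%). With 100 kb there were 224 CTCF peaks, 50 anchors, 70 other CAC sites and 34 lone sites, and the share without CTCF fell to 30.5% (65 of 213). Of the 85 Rad21 peaks with a score of at least 100, 13 were CNC sites, or 15.3% where that of all such Rad21 peaks was 8.14%. Removing CTCF peaks under 100 as well gave 22 CNC sites, or 25.9% against 15.5% of all, since co-bound peaks that lost a weak CTCF peak were then counted as CNC sites. Counting a Rad21 peak as co-bound only by a reciprocal overlap of 50% gave 44.8% against 33.7% of all, and by summits within 100 bp 45.5% against 36.8%. Leaving out Pcx, with the most Rad21 peaks, gave 34.2%. The share at members was above that of all peaks under each of these settings. Members with a CNC site at the start numbered 3 within 500 bp and 7 within 2.5 kb. With co-binding defined by summits within 100 bp they numbered 6, and at a Rad21 score of at least 100 they numbered 1 (Arg1). They numbered 2 where CTCF peaks under 100 were removed too, the second being Nags through its co-bound peak of score 182. The median strength of the members' CNC sites stood at the 57.6th percentile of all CNC sites by score and the 29.1st by fold. Within 50 bp of the summit, 4 CNC sites held a listed factor motif. At a looser match level passed by 5% of flanking windows, 3 CNC sites held the CTCF motif, where 7.20% of all did. Settings on the summit in the start zone, on the Rad21 score alone, on Rad21 against CTCF strength and on the looser motif level were chosen after seeing the data. Leaving out a library was not possible because the lists are pooled. No paired analysis was possible because the lists hold no values of single libraries. The number of fragments at the members' CNC summits was as low as 21, and the effect of depth on weak sites was not tested.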
